A study of Homo sapiens with 24 samples.

Results

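The genes of MHC class I antigen presentation were described in CD18/HPAF, a line established from a human pancreatic adenocarcinoma. Cells exposed to 1 µM ISOX for 48 h were compared with cells left untreated. ISOX, also called CAY10603, is a small molecule that blocks histone deacetylases, chiefly HDAC6. Both groups were grown in DMEM with fetal bovine serum, and the labels call the control cells untreated, without naming a vehicle. There were 12 samples a group, whose titles combine 3 first numbers with 4 second numbers, and the sources used here do not say whether these were separate cultures. The 9 genes were chosen by name among 30276 rows: HLA-B, HLA-C, HLA-E and HLA-F, which encode class I heavy chains, B2M for the shared light chain, TAP1, TAP2 and TAPBP for peptide transport and loading, and NLRC5 for the transcriptional coactivator of class I genes. Each was read from the row on a reference chromosome. The other 42 rows of these genes lie on alternative contigs, and all of them were listed at 0 in both groups.

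MHC class I molecules carry peptides from inside the cell to its surface, where cytotoxic T cells and natural killer cells inspect them. Peptides cut by the proteasome cross into the endoplasmic reticulum through a transporter made of TAP1 and TAP2. Tapasin, the product of TAPBP, then holds the empty heavy chain and its light chain, beta-2-microglobulin, at that transporter until a peptide binds. Transcription of these genes is driven by interferons, by NF-kB and by NLRC5, which acts with factors on a conserved upstream module, and tumor cells often keep low class I levels to escape T cells.

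The authors' value was a single pooled FPKM per gene and group (fragments mapped to a transcript, scaled by its length and by the size of the library). There is therefore no value per sample and no SD, the depth behind each value is unknown, and no difference below has a replicate check or a test. A difference is given as the log2 ratio of ISOX over untreated, and a gene is called higher or lower where its values lie at least 1.5-fold apart. Comparison was made with the 11915 features that had a mean of at least 1 FPKM over the pair of values and were not listed at 0 in either group. Their median log2 ratio was 0.21, or 1.16-fold, and 77.1% of them lay above 0, so each ratio is also given as its distance from that median. Of the 9 genes, 8 passed the minimum and NLRC5 did not.

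The upstream sequences of 7 of the genes are shown first. They were searched for the letters of sites through which interferon, NF-kB and NLRC5 partners are known to act. RefSeq windows of the build GRCh38.p14, from 250 bases before to 50 bases after a transcription start, were found for HLA-B, HLA-C, HLA-F, B2M, TAP1, TAP2 and TAPBP, with a second window for TAP1. Windows for HLA-E and NLRC5 were not used here. Capitals mark the letters that matched, on either strand, the NF-kB consensus, the interferon-stimulated response element (ISRE) core, which is TTTC and TTTC with any 2 bases between, or its shorter form TTTCNNTTC, the X2 core TGACG bound by CREB and ATF factors, and the CCAAT box bound by NF-Y. The shorter ISRE form was added after the sequences had been read, and both ISRE forms can overlap. The heavy chain genes and B2M come first.
HLA-B: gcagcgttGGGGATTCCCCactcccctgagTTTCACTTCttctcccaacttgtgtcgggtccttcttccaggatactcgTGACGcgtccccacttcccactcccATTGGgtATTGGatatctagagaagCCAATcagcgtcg
HLA-C: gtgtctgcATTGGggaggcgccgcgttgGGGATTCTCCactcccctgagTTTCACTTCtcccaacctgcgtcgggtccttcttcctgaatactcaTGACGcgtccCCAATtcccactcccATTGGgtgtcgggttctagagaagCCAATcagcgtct
HLA-F: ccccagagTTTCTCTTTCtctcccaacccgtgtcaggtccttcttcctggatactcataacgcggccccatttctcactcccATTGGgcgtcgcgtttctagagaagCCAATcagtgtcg
B2M: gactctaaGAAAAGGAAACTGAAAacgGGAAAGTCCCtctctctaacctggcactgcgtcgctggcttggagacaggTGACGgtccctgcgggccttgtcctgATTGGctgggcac
The HLA-B stretch is chr6:31357223-31357364 on the minus strand, 185 to 44 bases before the start. That of HLA-C is chr6:31272136-31272292 on the minus strand, 200 to 44 bases before the start. HLA-F is shown at chr6:29723270-29723389 on the plus strand, 164 to 45 bases before the start, and B2M at chr15:44711365-44711480 on the plus strand, 152 to 37 bases before the start. In each of these 4 stretches the match nearest to the start was a CCAAT box, and HLA-C held another one farther from the start than its NF-kB match. TGACG was found in HLA-B, HLA-C and B2M, and these letters were not in the HLA-F window.

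The transporter and tapasin genes are shown because the ISRE core was in the windows of all 3.
TAP1: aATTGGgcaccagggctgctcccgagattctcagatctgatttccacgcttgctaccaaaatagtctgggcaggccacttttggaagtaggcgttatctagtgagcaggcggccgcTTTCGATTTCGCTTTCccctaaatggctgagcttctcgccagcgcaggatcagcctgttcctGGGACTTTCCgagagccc
TAP2: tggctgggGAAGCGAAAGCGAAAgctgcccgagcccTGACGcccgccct
TAPBP: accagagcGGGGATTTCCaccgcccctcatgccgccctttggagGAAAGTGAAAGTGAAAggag
These lie on the minus strand at chr6:32853759-32853954 for TAP1, from 250 bases before the start, at chr6:32838762-32838810 for TAP2, from 71 bases, and at chr6:33314079-33314142 for TAPBP, from 64 bases. The ISRE core was present in the windows of 5 of the 7 genes (HLA-F, B2M, TAP1, TAP2 and TAPBP), against 3.57% of all 35116 RefSeq windows of the same length. The shorter form was in 3, HLA-B, HLA-C and TAP2, against 7.66%. The NF-kB consensus was in 5 against 11.3%, the CCAAT box in 5 against 34.6% and TGACG in 4 against 24.6%. Of the other motifs searched, the GC box GGGCGG was in HLA-C, TAP1, TAP2 and TAPBP against 45.0% of all windows. The interferon gamma site TTCNNNGAA was in the second TAP1 window against 7.66%, and the E-box CACGTG in none of the 7 genes, against 7.26%. These shares count windows, whereas a gene was counted with a match in any of its windows. Counted by gene over 8576 expressed features with a window, the ISRE core was in 3.99% and its shorter form in 7.92%. By the same count the NF-kB consensus was in 17.2%, the CCAAT box in 43.6%, TGACG in 41.1% and the GC box in 77.6%. The interferon gamma site was in 8.56% and the E-box in 12.8%.

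B2M and HLA-B were the genes of this set that lay at least 1.5-fold higher in ISOX-treated CD18/HPAF cells. They were 2 of the 8 genes that passed the minimum, or 25.0%, while 12.4% of all features were that much higher. None of the 8 genes was at least 1.5-fold lower, against 2.25% of all features. The median log2 ratio of the 8 genes was 0.41 beside 0.21 for all features, and that of all 9 genes was 0.31. Measured from the median of all features, the same pair lay at least 1.5-fold higher, where 5.59% of all features did, and none lay as far below it, where 4.9% did. After division by the sum of all FPKM values, B2M alone remained above 1.5-fold. With so few genes these shares describe the set and do not set it apart.

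**Figure D1:**
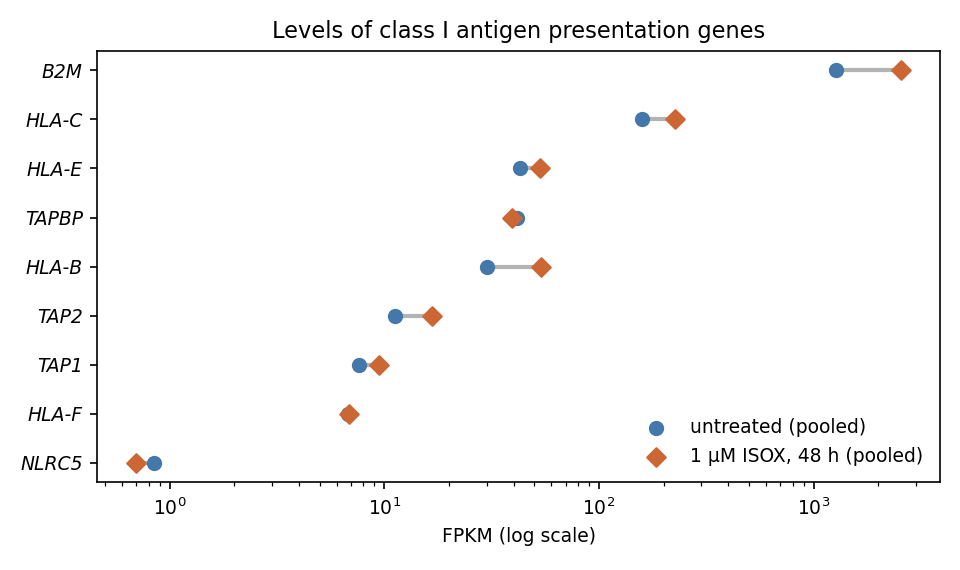
Pooled FPKM of the 9 class I presentation genes on a log scale, with a circle for untreated and a diamond for ISOX-treated CD18/HPAF cells and a line joining the pair. B2M stands at the top with 1274 and 2564 FPKM, NLRC5 at the bottom with 0.850 and 0.696 FPKM, and the widest gaps on this scale are those of B2M and HLA-B.

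B2M encodes beta-2-microglobulin, the invariant light chain without which class I heavy chains do not reach the surface. The gene lies on chromosome 15 of hg38 from 44711487 to 44718159. It had 1274 FPKM without and 2564 FPKM with ISOX, a 2.01-fold difference and the largest ratio of the 9 genes. Its log2 ratio of 1.01 exceeded that of 97.1% of all features and lay 0.80 above their median. By level B2M ranked 72 among the 11915 features in untreated and 45 in ISOX-treated cells. It was the single member of the set past 2-fold, where 2.99% of all features were at least 2-fold higher, and none of the set was 2-fold lower, against 0.596%. Abundant features were also more often higher, and of the 870 with a mean of at least 100 FPKM, 21.8% were at least 1.5-fold higher and the central 90% ran from −0.15 to 1.04. B2M thus lay just inside the upper end of that range.

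HLA-B and HLA-C encode classical heavy chains, which present peptides to cytotoxic T cells and serve as ligands for killer cell receptors. HLA-B, on chromosome 6 from 31353872 to 31357212, had 29.99 FPKM without and 53.9 FPKM with ISOX. The difference was 1.80-fold, with a log2 ratio of 0.85 that lay 0.64 above the median of all features and above 95.2% of them. Among the 5466 features with a mean of 10 to 100 FPKM, the central 90% ran from −0.21 to 0.77, so HLA-B lay beyond that range. HLA-C, on chromosome 6 from 31268749 to 31272136, was at 159 and 226 FPKM, which placed it as the second most abundant gene of the set in both groups. Its 1.42-fold difference (log2 ratio 0.50, 0.29 above the median) stayed below the threshold. The 870 features with a mean of at least 100 FPKM had a higher median of 0.35. Their central 90% ran from −0.15 to 1.04, so HLA-C lay well within the range of its level. Untreated cells held 5.31 times as much HLA-C as HLA-B per length, and ISOX-treated cells 4.18 times as much.

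HLA-E and HLA-F encode non-classical heavy chains, of which HLA-E shows leader peptides of other class I chains to natural killer cells. HLA-E, on chromosome 6 from 30489406 to 30494205, had 43.0 FPKM without and 53.3 FPKM with ISOX. Its 1.24-fold difference (log2 ratio 0.31) was 0.10 above the median of all features, and it turned to −0.08 when values were divided by the sum of FPKM. HLA-F, on chromosome 6 from 29723340 to 29749049, was at 6.74 and 6.87 FPKM with a log2 ratio of 0.03. This near-equal pair lay 0.18 below the median of all features on the log2 scale, so HLA-F was below 0 after each scaling tried. The heavy chain genes thus ordered as HLA-B, HLA-C, HLA-E and HLA-F by ratio. By level, HLA-E stood above HLA-B in untreated cells, whereas the pair was nearly level in ISOX-treated cells, where the ratio of HLA-B to HLA-E was 1.01 in place of 0.697. Whether any neighbours in these orders differ beyond replicate spread cannot be said from pooled values.

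The HLA-F row shares its span with that of HLA-F-AS1, an antisense transcript. HLA-F-AS1 had 2.23 FPKM without and 1.26 FPKM with ISOX, 1.77-fold lower, while HLA-F was level. The strand setting of the counting is not given in the sources used here, and without it reads of the antisense pair cannot be told apart where their exons overlap. Class I heavy chains are alike in sequence, which can mix their reads. On the GENCODE release 29 reference transcripts, 29 of 1462 windows of 75 bases in HLA-C (1.98%) recurred exactly in another class I gene, as did 51 of 2527 in HLA-E (2.02%) and none in HLA-B or HLA-F. Outside the class I family, 227 of 1473 windows of HLA-B (15.4%) recurred in AL671883.2 and 563 of 1561 of HLA-F (36.1%) in overlapping genes, while B2M had none of 1631. Exact matches to the reference do not cover the line's own alleles, which may differ from it, so a loss or exchange of reads among heavy chain genes was not measured.

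**Figure D2:**
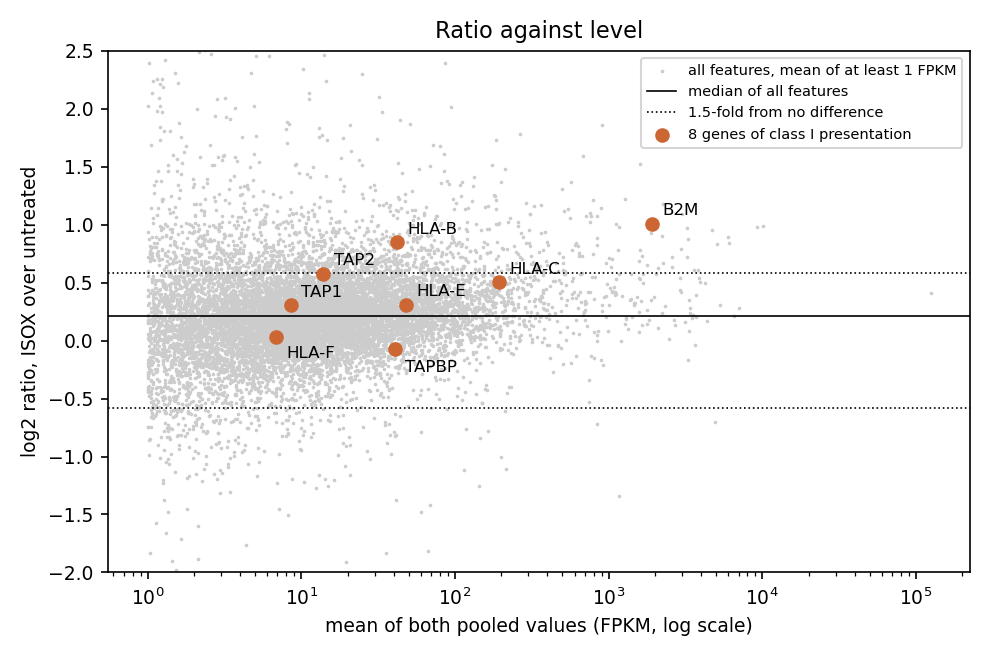
Log2 ratio of ISOX over untreated against the mean of both pooled values (FPKM, log scale), with grey points for all 11915 features and orange points for the 8 class I presentation genes. The solid line is the median of all features at 0.21 and dotted lines mark 1.5-fold; B2M and HLA-B lie above the upper dotted line, and 27 features lie beyond the vertical axis.

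TAP1 and TAP2 encode the subunits of the transporter that carries peptides into the endoplasmic reticulum. TAP2, on chromosome 6 from 32821833 to 32838823, had 11.2 FPKM without and 16.7 FPKM with ISOX. Its 1.49-fold difference (log2 ratio 0.58, 0.37 above the median) fell just short of the threshold and was the next after HLA-B. TAP1, whose row runs from 32840717 to 32853971 on chromosome 6, was at 7.62 and 9.42 FPKM. The difference was 1.24-fold, with a log2 ratio of 0.31 that turned to −0.08 after division by the sum of FPKM. The amount of TAP2 relative to TAP1 was 1.47 in untreated and 1.77 in ISOX-treated cells. Both values share sequence with overlapping genes. Of 2423 windows of TAP2, 1939 (80.0%) recur in the overlapping gene AL669918.1, and of 2885 windows of TAP1, 393 (13.6%) recur in another gene, chiefly the antisense PSMB8-AS1. The TAP1 row also shares its span with PSMB8, and how the authors' counting split such reads is not given in the sources.

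TAPBP encodes tapasin, which bridges the empty class I molecule and the transporter. The row, on chromosome 6 from 33299591 to 33317942, joins TAPBP with ZBTB22, so the reads of both genes are in its value. It had 41.6 FPKM without and 39.4 FPKM with ISOX, with a log2 ratio of −0.08, or 0.29 below the median of all features. Only 16.7% of all features had a lower ratio. NLRC5, on chromosome 16 from 57017074 to 57083524, had the lowest level of the 9 genes at 0.850 and 0.696 FPKM. Its log2 ratio of −0.29 was the lowest of the set as well and rests on values below 1 FPKM, where no comparison with other features was made. The ratio of NLRC5 and those of B2M and HLA-B thus had opposite signs. Each scaling tried lowered all ratios alike, so that of NLRC5 could not change sign, while those of B2M and HLA-B stayed above 0. With a pseudocount of 1 FPKM the log2 ratio of NLRC5 was −0.13.

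TGACG, picked from the motifs searched once the ratios were known, divided the genes with a window by those same ratios. The split is therefore a description only. The 4 genes that carried it (B2M, HLA-B, TAP2 and HLA-C) had log2 ratios from 0.50 to 1.01, and the 3 without it (TAP1, HLA-F and TAPBP) from −0.08 to 0.31. Over all 8576 expressed features with a window, the median was 0.22 with TGACG and 0.21 without, and 12.1% and 11.3% were at least 1.5-fold higher. The letters, counted anywhere in a window, went with no such difference in the table at large. That count does not ask for the other sites of the class I promoter, so it cannot bear on the split among these genes. The ISRE core did not order the genes, since its 5 carriers ran from TAPBP at −0.08 to B2M at 1.01. Across all features its carriers had a median of 0.22, the same as those without it. A match of letters in a window is a description of sequence and not evidence that a factor binds there.

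Most other genes of the class I pathway were close to the median of all features. The counts in these lists stand beside 12.4% of all features at least 1.5-fold higher and 2.25% lower. Of 12 genes for peptide supply, all passed the minimum, none was at least 1.5-fold higher or lower, and their median log2 ratio was 0.17. PSMB8 and PSMB9, catalytic subunits of the immunoproteasome whose genes lie beside TAP1, were at 58.2 and 61.7 FPKM and at 26.4 and 33.5 FPKM in untreated and ISOX-treated cells. The largest differences of this list were the 1.29-fold of NRDC, a peptidase listed in the table as NRD1, and the 1.27-fold of PSMB9, with PSME2 and TPP2 next at 1.24-fold and 1.21-fold. PSME2 encodes a subunit of the proteasome activator PA28 and TPP2 a cytosolic peptidase.

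Of 8 chaperones and glycan enzymes that serve peptide loading, 1 was at least 1.5-fold higher and none lower, with a median of 0.21. The exception was HSPA5, the general endoplasmic reticulum chaperone BiP, at 149 and 258 FPKM. Calnexin, encoded by CANX, was at 107 and 133 FPKM, and the glucosidase subunit genes GANAB and MOGS had log2 ratios of 0.26 and 0.21. The partners of tapasin in the loading complex were nearly level, with CALR at 372 and 370 FPKM and PDIA3 at 147 and 150 FPKM.

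Among 9 listed factors of the class I promoter, 8 passed the minimum, 1 was at least 1.5-fold higher and none lower, with a median of 0.18. NFYB, a subunit of the CCAAT-binding factor NF-Y, had 8.29 FPKM without and 15.4 FPKM with ISOX, 1.86-fold higher. Its partner NFYA had a log2 ratio of 0.32, ATF1 of 0.27 and RFXAP, a subunit of the RFX complex on the X box, of 0.20. CIITA, the class II counterpart of NLRC5, did not pass the minimum at 0.0383 and 0.0634 FPKM.

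Of 23 listed interferon and NF-kB signalling genes, 22 passed the minimum, 3 were at least 1.5-fold higher and none lower, with a median of 0.19. Of all features, 12.4% were that much higher. Measured from the median of all features, 1 of the 3, SOCS3, was still at least 1.5-fold higher. SOCS3, which restrains cytokine receptors, was at 1.48 and 2.88 FPKM, the kinase gene JAK2 at 0.881 and 1.45 FPKM, and IFNGR2, a chain of the interferon gamma receptor, at 30.2 and 45.9 FPKM. JAK1 was at 13.0 and 19.3 FPKM, a 1.48-fold difference below the threshold. IRF1, an interferon-induced transcription factor that binds the ISRE of class I promoters, was nearer to the median with a log2 ratio of 0.31.

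Of 19 class I-like and further class I genes, 11 passed the minimum, 2 were at least 1.5-fold higher and none lower, with a median of 0.18. ULBP2, a stress-induced ligand of the natural killer receptor NKG2D, was at 1.47 and 2.53 FPKM, and AZGP1, a secreted class I-like protein, at 2.89 and 4.49 FPKM. FCGRT, the neonatal Fc receptor, which also pairs with beta-2-microglobulin, was at 24.5 and 17.2 FPKM with a log2 ratio of −0.51. Measured from the median of all features, FCGRT was at least 1.5-fold lower and neither ULBP2 nor AZGP1 at least 1.5-fold higher. Another partner of beta-2-microglobulin, the iron regulator HFE, was at 12.9 and 10.3 FPKM.

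Most of the MHC class II list was below the minimum. Of 12 genes, 2 passed it, of which 1 was at least 1.5-fold higher and none lower, and 6 were listed at 0 in both groups. HLA-DMA was at 6.71 and 8.35 FPKM and HLA-DOB, which adjoins TAP2, at 0.725 and 1.60 FPKM, a 2.21-fold difference larger than that of B2M but at a far lower level. Of 10 genes for inhibitory ligands and class I surface turnover, 7 passed the minimum and none was at least 1.5-fold higher or lower. MARCHF9, a ubiquitin ligase that removes class I from the surface and is listed as MARCH9, was nearest to the threshold at 2.94 and 4.35 FPKM. CD47, the signal against phagocytosis, was at 15.6 and 17.1 FPKM, and SUSD6, SPPL2A and SPPL3 had log2 ratios of −0.25, 0.21 and 0.19. CD274, which encodes PD-L1, did not pass the minimum at 0.431 and 0.801 FPKM.

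**Figure D3:**
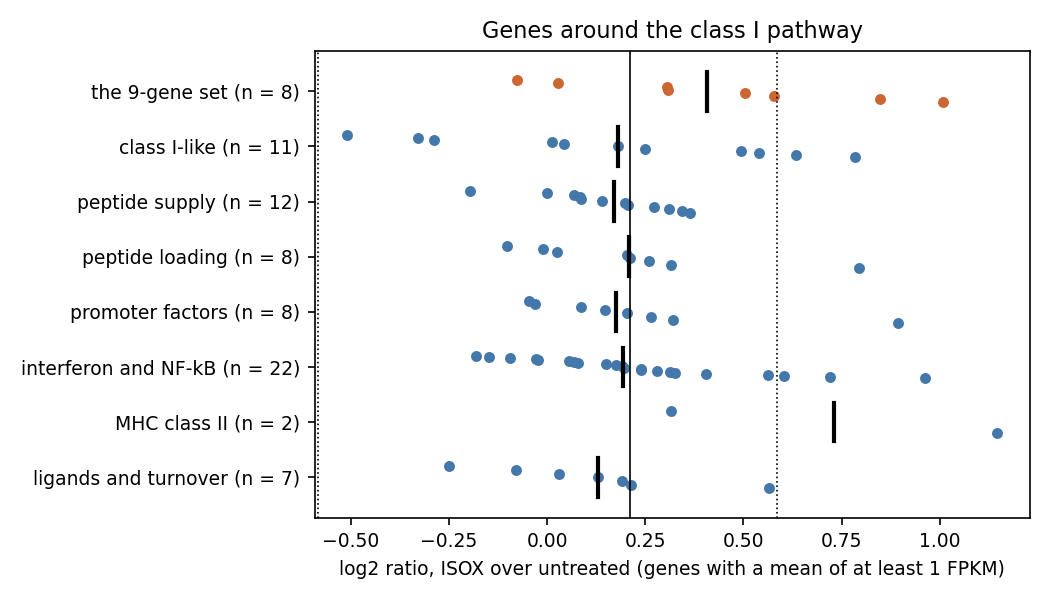
Log2 ratio of ISOX over untreated for each gene with a mean of at least 1 FPKM, by list, with orange points for the class I presentation genes and a thick bar at the median of each list. The median of the 8 class I presentation genes is 0.41, that of the 12 peptide supply genes 0.17 and that of the 22 interferon and NF-kB genes 0.19; the thin line is the median of all features at 0.21 and dotted lines mark 1.5-fold.

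Of the 9 genes, 7 lie in the MHC region of chromosome 6, and their neighbours there centred on the median of all features. Between the HLA-F and TAPBP rows, a stretch of 3.59 Mb, 94 other features passed the minimum. Their median log2 ratio was 0.20, close to the 0.21 of all features, and 10 of them (10.6%) were at least 1.5-fold higher and 3 (3.19%) lower. HLA-B at 0.85 lay above the central 90% of these neighbours, which ran from −0.47 to 0.73, and the other 6 class I presentation genes on chromosome 6 lay within it. B2M, the gene with the largest ratio, and NLRC5, with the lowest, are on other chromosomes.

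**Figure D4:**
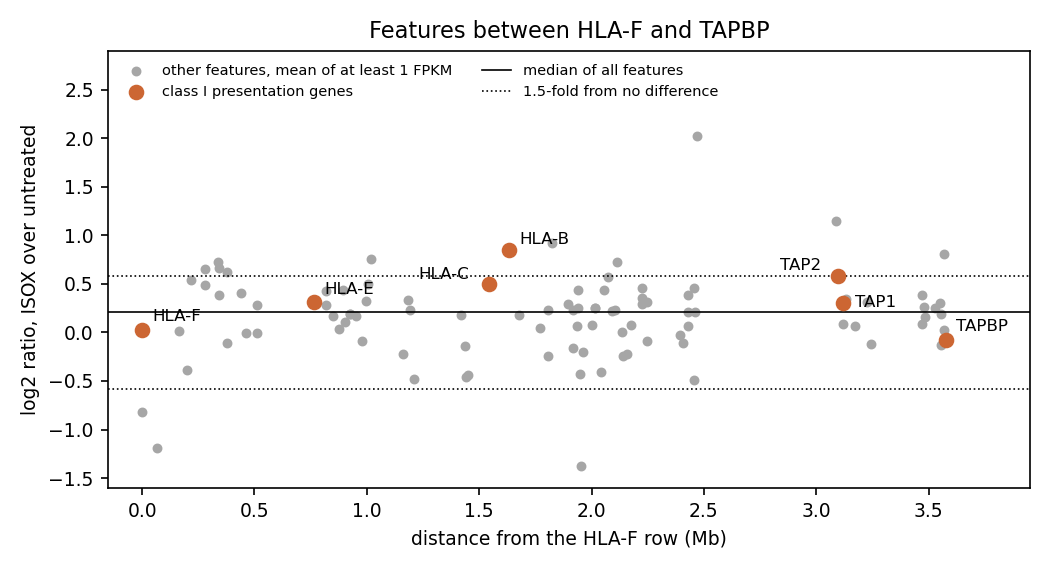
Log2 ratio of ISOX over untreated for 94 features (grey) and 7 class I presentation genes (orange) against distance from the HLA-F row in Mb. The solid line is the median of all features at 0.21 and dotted lines mark 1.5-fold; HLA-B at 0.85 is the single labelled gene above the upper dotted line.

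Markers of pancreatic epithelial cells were abundant in both groups, with 8 of 8 passing the minimum and untreated levels from 85.1 FPKM for MUC1 to 2970 FPKM for KRT19. Of these, KRT7 and CEACAM6 were at least 1.5-fold higher with ISOX, at 844 and 1451 FPKM and at 119 and 411 FPKM. Markers of other cell types that carry class I genes were read beside them. Endothelial markers summed to 0.145 and 0.131 FPKM, with CDH5 and KDR at 0. Fibroblast markers summed to 15.5 and 40.1 FPKM, most of it LUM at 12.9 and 36.8 FPKM, with COL1A1 at 2.48 and 2.75 FPKM and COL1A2, COL3A1, DCN and PDGFRB below 1 FPKM. Leukocyte markers summed to 481 and 842 FPKM, most of it LYZ at 458 and 809 FPKM. The myeloid markers CD14 and CD68 also passed the minimum, at 2.68 and 7.02 FPKM and at 20.1 and 26.2 FPKM, and CD14 and LYZ were at least 1.5-fold higher with ISOX. The defining PTPRC reached at most 0.0118 FPKM and CD3E was listed at 0 in both groups. The part of these sums in the class I ratios was not tested.

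**Figure D5:**
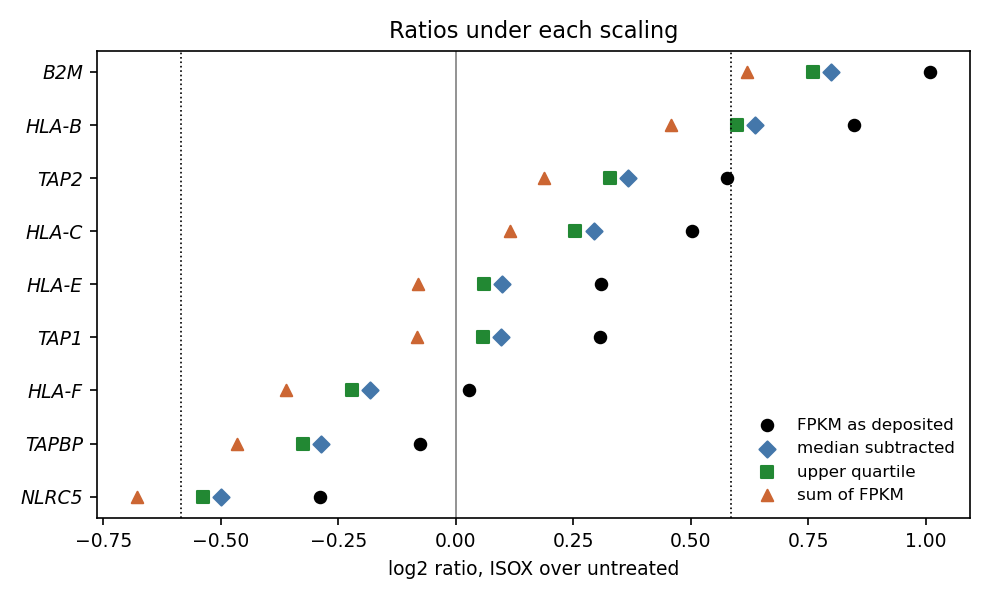
Log2 ratio of ISOX over untreated for the 9 class I presentation genes under 4 scalings: FPKM as deposited, the median of all features subtracted, the upper quartile and the sum of FPKM. B2M stays past the dotted 1.5-fold line under each, from 1.01 down to 0.62, HLA-B falls to 0.46 under the sum of FPKM, and HLA-E and TAP1 change sign there.

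The order of the 9 ratios is the same under each of these scalings, which shift all genes alike. The FPKM values summed to 667281 in untreated and 873757 in ISOX-treated cells, and dividing by these sums lowered every log2 ratio by 0.39. B2M then had a log2 ratio of 0.62, HLA-B of 0.46, TAP2 of 0.19 and HLA-C of 0.11, while HLA-F was at −0.36, TAPBP at −0.46 and NLRC5 at −0.68. Which scaling is closest to the RNA content of the cells was not tested. In bulk samples, a difference in the share of cells that express a gene and a difference in its RNA per cell cannot be told apart.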

How the data were processed

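RNA of CD18/HPAF cells treated with 1 µM ISOX for 48 h or left untreated was sequenced as paired-end reads. Build hg38 and the tools Cuffdiff, Cufflinks, Bowtie and TopHat appear in the submitters' processing notes, while versions, annotation and strand setting were not given in the sources used here. Cuffdiff output of the authors was deposited as a table of FPKM values that the authors' run pooled over each group, so no error, n or depth goes with a value. Its log2 fold changes, p-values and q-values are the authors' own and were not used. Starts, which count from 0 there, are given from 1.

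Ratios of ISOX over untreated were computed from FPKM with no pseudocount, over features with a mean of at least 1 FPKM, and calls were made at 1.5-fold. The arithmetic of this step was checked on simulated data, in which known folds without noise were put into the untreated values. Such a check cannot bear on replicate spread. No test was possible with 1 value a group. The 9 genes and the lists were chosen with earlier results of these data known. Named were all 9 genes and, from each list of related genes, up to 4 genes past the minimum with the largest absolute log2 ratio, and rows that overlap or adjoin one of the 9. Markers of cell types were outside this rule, and those named were picked after their values were seen. CALR, PDIA3, IRF1, CIITA, HFE, CD47 and CD274 were added after their values were seen. So were the neighbours on chromosome 6 and the repeat of the motif counts over all expressed features with a window. A gene that the rule names is not reported here. Reads of polymorphic heavy chain genes were aligned to a reference that may differ from the line's alleles. Alternatives were a pseudocount of 1 or 0.1 FPKM, other scalings and minimums, a 2-fold threshold and the sum over all rows of a gene. Python 3.11.15, numpy 2.4.6, pandas 2.3.3 and matplotlib 3.10.9 were used.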

Additional observations from a re-analysis of the deposited data

How the results depend on the processing

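B2M and HLA-B were the genes past 1.5-fold with pseudocounts of 1 and 0.1 FPKM, after subtraction of the median, with upper quartile scaling, with no minimum, with a minimum of 10 FPKM and with all rows of a gene summed. At 2-fold and after division by the sum of FPKM, with or without the highest feature, 1 gene was left, B2M. None of the 9 genes reached 1.5-fold lower among those past the minimum in any of these. The median log2 ratio of the genes past the minimum, 0.41, became 0.20 with the median subtracted, 0.16 with the upper quartile, 0.017 with the sum of FPKM, 0.021 with that sum without the highest feature, 0.31 with no minimum and 0.54 with a minimum of 10 FPKM. Of all features, 1474 were higher and 268 lower. These counts became 356 and 71 at 2-fold, 666 and 584 with the median subtracted, 591 and 670 with the upper quartile, 388 and 1141 with the sum of FPKM, 392 and 1122 without the highest feature, 2777 and 1252 with no minimum, and 808 and 67 with a minimum of 10 FPKM. With a pseudocount of 1 FPKM, 150 were lower. The share of calls that were higher fell from 84.6% to 53.3% with the median subtracted, 46.9% with the upper quartile and 25.4% with the sum of FPKM. Neither B2M nor HLA-B changed sign. No paired analysis was possible because each group has a single pooled value, and for the same reason no replicate could be left out. Pooled FPKM values with unknown depth limit every statement to these 2 values a gene.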
